A study of Brassica oleracea with 12 samples.

Results

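The genes annotated to the tricarboxylic acid cycle were followed in leaf messenger RNA of an ornamental kale, Brassica oleracea var. acephala. Young leaves of its cultivar JC007-2B are red, and later leaves are red in the center and green at the margin. The set holds every entry of the expression table that carries the gene ontology term for the tricarboxylic acid cycle and no anthocyanin or flavonoid term, and that reached 1 FPKM in 3 or more of the 12 libraries. FPKM are fragment numbers divided by transcript length and by the mapped fragments of the library, as computed by the authors. The term stands on 60 of 45714 entries, and 52 of these met the level rule, as did 27272 entries in all. The other 8 did not pass. They are the NAD-isocitrate dehydrogenase entries Bo5g138060 and IDH-III, the citrate synthase entry Bo4g108210, the malate synthase entry Bo2g005280 and the phosphoenolpyruvate carboxylase entries Bo6g029490, Bo3g066500, Bo5g127590 and ATPPC4. No entry was barred for an anthocyanin or flavonoid term.

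The libraries form 4 groups with 3 libraries each, all of the same cultivar. S1 stands for whole leaves at the red stage, taken without their veins. S2 stands for whole leaves at the next stage, also without veins, when the red center and green margin appear. At stage 3 the leaf was split into its red center (S3_C) and its green margin (S3_S). Nothing in the labels ties the 3 libraries of a group to separate plants. The p-values therefore reflect spread between samples that may be technical.

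The cycle oxidises acetyl groups to carbon dioxide in the mitochondrial matrix and passes the electrons to the respiratory chain. Citrate synthase joins acetyl-CoA to oxaloacetate, isocitrate and 2-oxoglutarate are then oxidised with loss of carbon dioxide, and succinate, fumarate and malate lead back to oxaloacetate. In illuminated leaves it also supplies citrate and 2-oxoglutarate as carbon skeletons for nitrogen assimilation. Plants keep further forms of several of these enzymes in the cytosol, the chloroplast and the peroxisome, and these can carry the same ontology term.

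Of the 52 members, 43 belong to 8 enzymes of the cycle or their forms in other compartments, and 9 are phosphoenolpyruvate carboxylases, which refill oxaloacetate and are not a step of the cycle. The 43 members comprise 5 citrate synthase entries, 4 of NAD-isocitrate dehydrogenase, 3 of NADP-isocitrate dehydrogenase and 7 of 2-oxoglutarate dehydrogenase. They further comprise 6 of succinyl-CoA ligase, 6 of succinate dehydrogenase, 2 of fumarase and 10 of malate dehydrogenase. No aconitase and no dihydrolipoyl dehydrogenase entry carries the ontology term, so those steps are described apart, at the end. Entries were placed at their step by an Arabidopsis identifier (10 members), a product description (25) or a function term (17). Among the members, 3 entries name more than 1 annotated gene, and their values cannot be split. Kale carries several copies of most of these genes, and how reads from near-identical copies were shared between entries is not given in the sources used here. Levels of single copies are therefore uncertain.

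The libraries stood apart in ways that the groups do not explain. Across the 27272 tested entries, libraries of 1 group correlated at 0.749 to 0.935 on the log2(FPKM + 1) scale (12 pairs), and libraries of different groups at 0.645 to 0.952 (54 pairs). S1 replicate 1 lay outside S1 replicates 2 and 3, by more than those differ, in 39 of 52 members and in 62.7% of all tested entries. S1 replicates 2 and 3 and S3_S replicate 3 were the 3 highest libraries in 8 members (15.4%, against 17.9% of all tested entries) and the 3 lowest in 4 (7.69%, against 7.99%). S1 replicate 1 correlated at 0.911 to 0.941 with the S2 libraries but at 0.749 and 0.761 with the other S1 libraries. S3_S replicate 3 correlated at 0.899 and 0.912 with S1 replicates 2 and 3 and at 0.855 and 0.853 with the other S3_S libraries. These 2 libraries thus resembled another group more than their own, and they were not alone in this. S3_C replicate 3 correlated at 0.895 to 0.925 with the S2 libraries and at 0.887 and 0.860 with the other S3_C libraries. With S3_S replicates 1, 2 and 3 it correlated at 0.906, 0.910 and 0.862. Whether libraries were exchanged was not tested, and all group means hold the libraries as labelled. Results on S1 are given with and without S1 replicate 1. Absolute depth is unknown for FPKM, and depth relative to S1 replicate 1 was estimated at 0.669 to 1 from the lowest values.

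Several markers of leaf cells, though not all, also set S1 replicates 2 and 3 or S3_S replicate 3 apart. The antenna gene LHCA4 ranged from 229 to 2047 FPKM in S1, from 1057 to 2664 in S2, from 981 to 2812 in S3_C and from 992 to 1559 in S3_S. LHCA4 and LHCB3, near 0 throughout, were the only matched entries of 8 photosynthesis markers. All 5 markers of dividing cells matched, with KNOLLE near 0, and their sum was 23.8 to 50.3 FPKM in S1, 11.7 to 28.3 in S2, 19.9 to 28.6 in S3_C and 19.3 to 32.5 in S3_S. The replication clamp gene PCNA1, 1 of these 5, read 9.10 and 12.2 FPKM in S1 replicates 2 and 3, 5.37 in S3_S replicate 3, and at most 0.759 elsewhere. The cyclin entry CYC1, the most abundant of the list, did not follow it, with 14.5, 19.5 and 21.3 FPKM in those 3 libraries and 10.7 to 27.8 elsewhere. Of 5 senescence markers 2 matched, SEN1 and SGR1, with sums of 0.524 to 257 FPKM in S1, 40.4 to 308 in S2, 56.1 to 566 in S3_C and 5.01 to 23.7 in S3_S. Of 7 vascular markers only XCP1 matched, with 0.460 to 5.67 FPKM in S1, 0.254 to 0.852 in S2, 0.360 to 0.454 in S3_C and 0.484 to 7.08 in S3_S. The epidermis and wax list matched 2 of 5, summing to 109 to 224 FPKM in S1, 21.1 to 127 in S2, 6.25 to 48.2 in S3_C and 36.9 to 225 in S3_S. Of 4 guard cell markers 1 matched, under the level rule, with 0.716 to 0.844 FPKM in S1, 0.387 to 1.14 in S2, 0.458 to 0.608 in S3_C and 0.914 to 1.41 in S3_S. The part of these markers in the results was not tested. In whole leaf pieces, fewer cells of a type and less RNA per cell cannot be told apart.

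Cycle entries were steady and moderately expressed as a set. The median member had a mean of 15.6 FPKM over the 12 libraries, against 5.49 for all tested entries, and members ranged from 1.93 to 383 FPKM. Their median coefficient of variation over the 12 libraries was 25.6%, with quartiles of 20.2% and 44.1%, against 43.1% (26.2% and 71.2%) for all tested entries. These entries were not matched for level, and the part of the members' higher level in their lower variation was not tested. In all, 24 members varied by less than 25% and 12 by more than 50%. Members together took between 0.289% of the summed FPKM (S2 replicate 1) and 0.616% (S3_C replicate 2). The heatmap of members by library shows where the uneven entries sit.

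**Figure D1:**
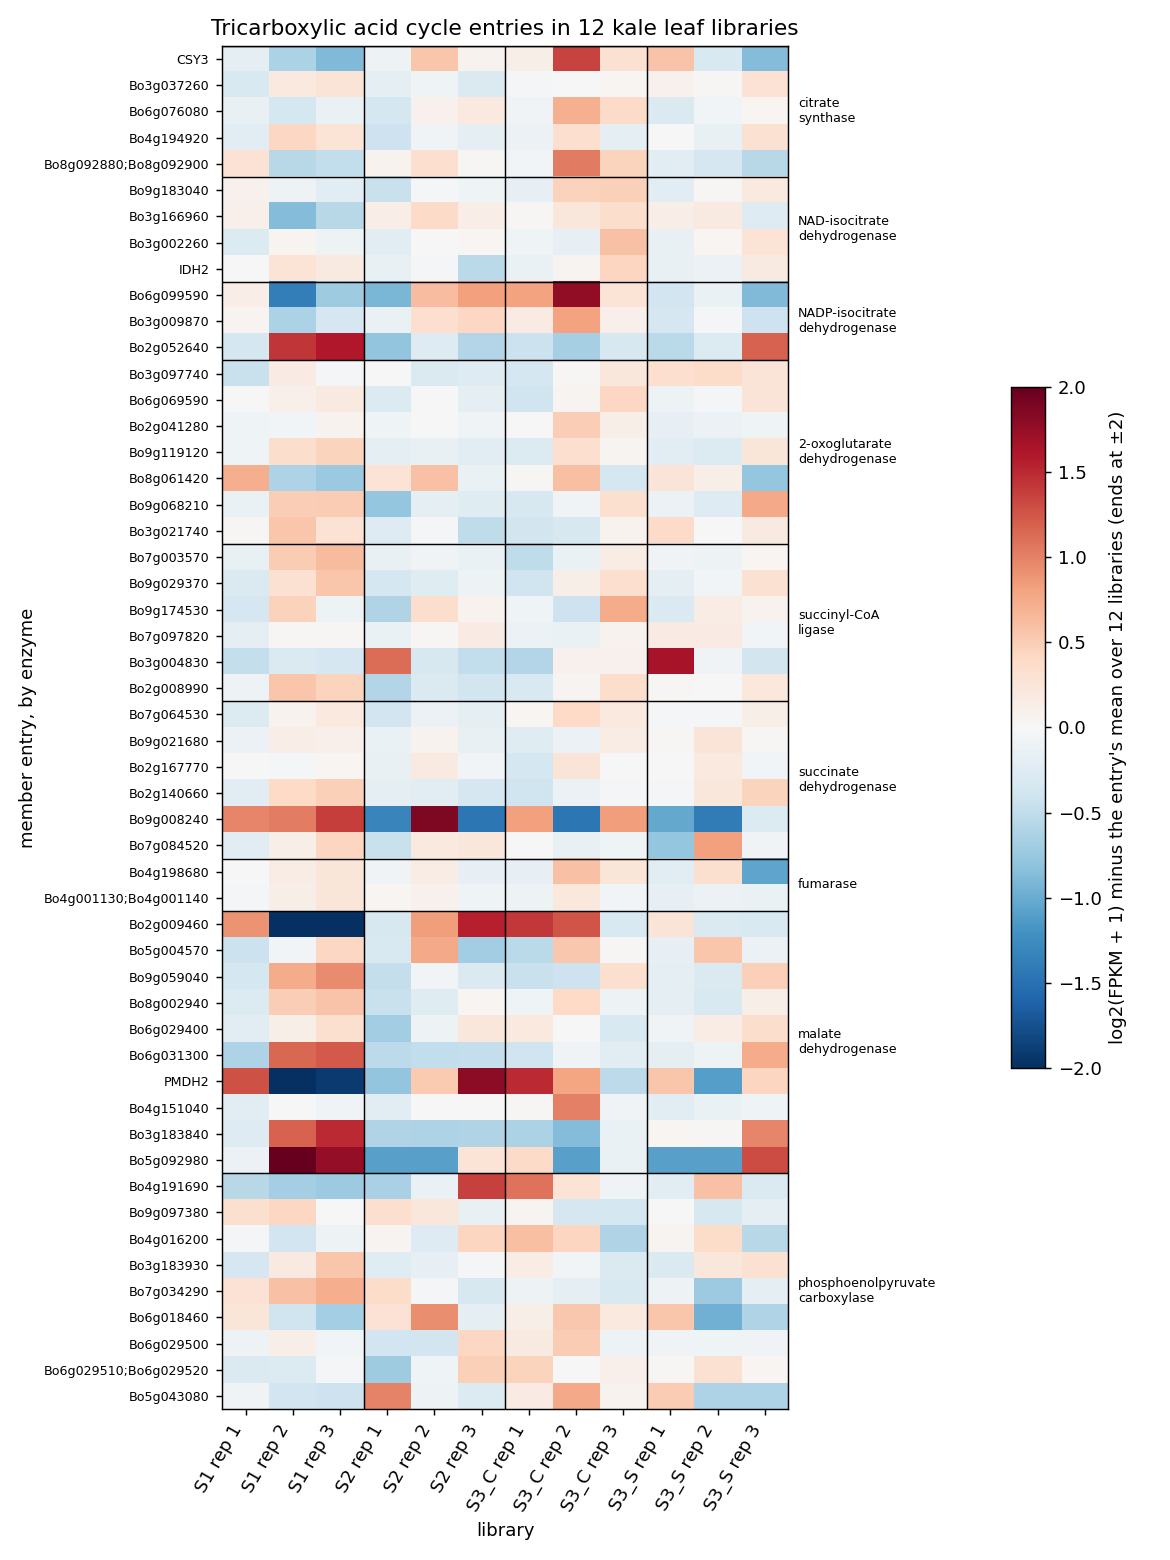
Each row is 1 of the 52 members, grouped by enzyme, and each column 1 library; color gives log2(FPKM + 1) minus the entry's mean over 12 libraries, with the scale ending at ±2. Most rows are pale, and the strong colors gather in malate dehydrogenase, NADP-isocitrate dehydrogenase and single entries of other enzymes, mainly in S1 replicates 2 and 3.

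Citrate synthase, which opens the cycle, was led by CSY3, which in Arabidopsis is a peroxisomal form. In the order of replicates 1 to 3, CSY3 read 53.0, 38.7 and 32.1 FPKM in S1, 56.0, 88.9 and 63.3 in S2, 65.2, 155 and 74.6 in S3_C, and 89.7, 48.7 and 32.7 in S3_S. All S2 and S3_C libraries lay above all S1 libraries, while S3_S overlapped each of the other groups. On the log2(FPKM + 1) scale the difference was 0.74 ± 0.42 (SE) between S2 and S1 and 1.15 ± 0.42 between S3_C and S1, with limma adjusted p = 0.425 and 0.213. The merged entry Bo8g092880;Bo8g092900 read 10.5, 5.45 and 5.75 FPKM in S1, 8.90, 10.9 and 8.61 in S2, 8.06, 18.5 and 11.9 in S3_C, and 7.16, 6.51 and 5.41 in S3_S. Its green margin libraries all lay below the red center and the S2 libraries. The remaining copies, described only as citrate synthase, were flatter, and Bo3g037260 stayed between 19.0 and 29.4 FPKM with a coefficient of variation of 14.0%. Summed over 5 entries, citrate synthase was 111 ± 5.13 FPKM (mean ± SD, n = 3) in S1, 136 ± 23.5 in S2, 181 ± 65.5 in S3_C and 127 ± 25.3 in S3_S. The S3_C mean rests partly on replicate 2, without which it was 143 FPKM.

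NAD-isocitrate dehydrogenase, the mitochondrial enzyme of the cycle proper, was low and even. Its 4 members had means of 6.29 to 18.8 FPKM, and their sum was 49.2 ± 3.93 FPKM in S1, 53.0 ± 5.61 in S2, 63.2 ± 12.8 in S3_C and 55.3 ± 4.04 in S3_S. The most abundant, Bo9g183040, read 19.6, 17.2 and 15.8 FPKM in S1, 13.4, 18.2 and 17.5 in S2, 16.4, 25.8 and 26.1 in S3_C, and 15.9, 18.9 and 21.4 in S3_S, and its groups overlapped. Bo3g166960 was the uneven copy, with 16.1, 7.67 and 9.79 FPKM in S1, 16.3, 19.8 and 16.5 in S2, 15.1, 17.6 and 19.3 in S3_C, and 16.5, 17.0 and 12.3 in S3_S. It was low in S1 replicates 2 and 3 and not in S1 replicate 1.

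NADP-isocitrate dehydrogenase makes 2-oxoglutarate and NADPH, in plants mostly outside the mitochondrial cycle. Its main copy, Bo6g099590, had a coefficient of variation of 70.2% over the 12 libraries. It read 164, 56.6 and 90.7 FPKM in S1, 78.7, 229 and 265 in S2, 263, 513 and 181 in S3_C, and 115, 136 and 80.3 in S3_S. All red center libraries lay above all green margin libraries and above all S1 libraries, with the gap to the margin running from 136 to 181 FPKM. The margin was lower than the center by 1.42 ± 0.56 (SE, log2(FPKM + 1) scale), with limma adjusted p = 0.476, which did not pass. Without S3_C replicate 2 that difference was -1.01. A second entry carries the same gene name, lacks the ontology term and stayed at or below 5.52 FPKM.

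Another copy, Bo2g052640, was high in 3 libraries and stayed at 4.74 to 7.29 FPKM in the others. It read 6.76, 25.9 and 29.2 FPKM in S1, 4.74, 7.29 and 5.62 in S2, 6.37, 5.29 and 7.01 in S3_C, and 5.88, 7.24 and 21.6 in S3_S. Its 3 high libraries were S1 replicates 2 and 3 and S3_S replicate 3. The ratio of Bo6g099590 to Bo2g052640 was 24.2, 2.19 and 3.11 in S1, 16.6 to 47.1 in S2, 25.9 to 97.0 in S3_C, and 19.5, 18.8 and 3.72 in S3_S. The third copy, Bo3g009870, matches the Arabidopsis enzyme that carries mitochondrial and chloroplast terms in the table. It read 18.2, 10.9 and 13.6 FPKM in S1, 15.9, 22.2 and 23.4 in S2, 19.7, 31.4 and 18.7 in S3_C, and 13.6, 16.9 and 12.9 in S3_S, again with every center library above every margin library. The senescence marker SEN1, like CSY3, Bo8g092880;Bo8g092900, Bo6g099590 and Bo3g009870, was highest in S3_C replicate 2, at 543 FPKM, and read 55.9 and 145 in the other center libraries against 23.6, 6.34 and 4.70 in the margin; its part in these results was not tested.

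**Figure D2:**
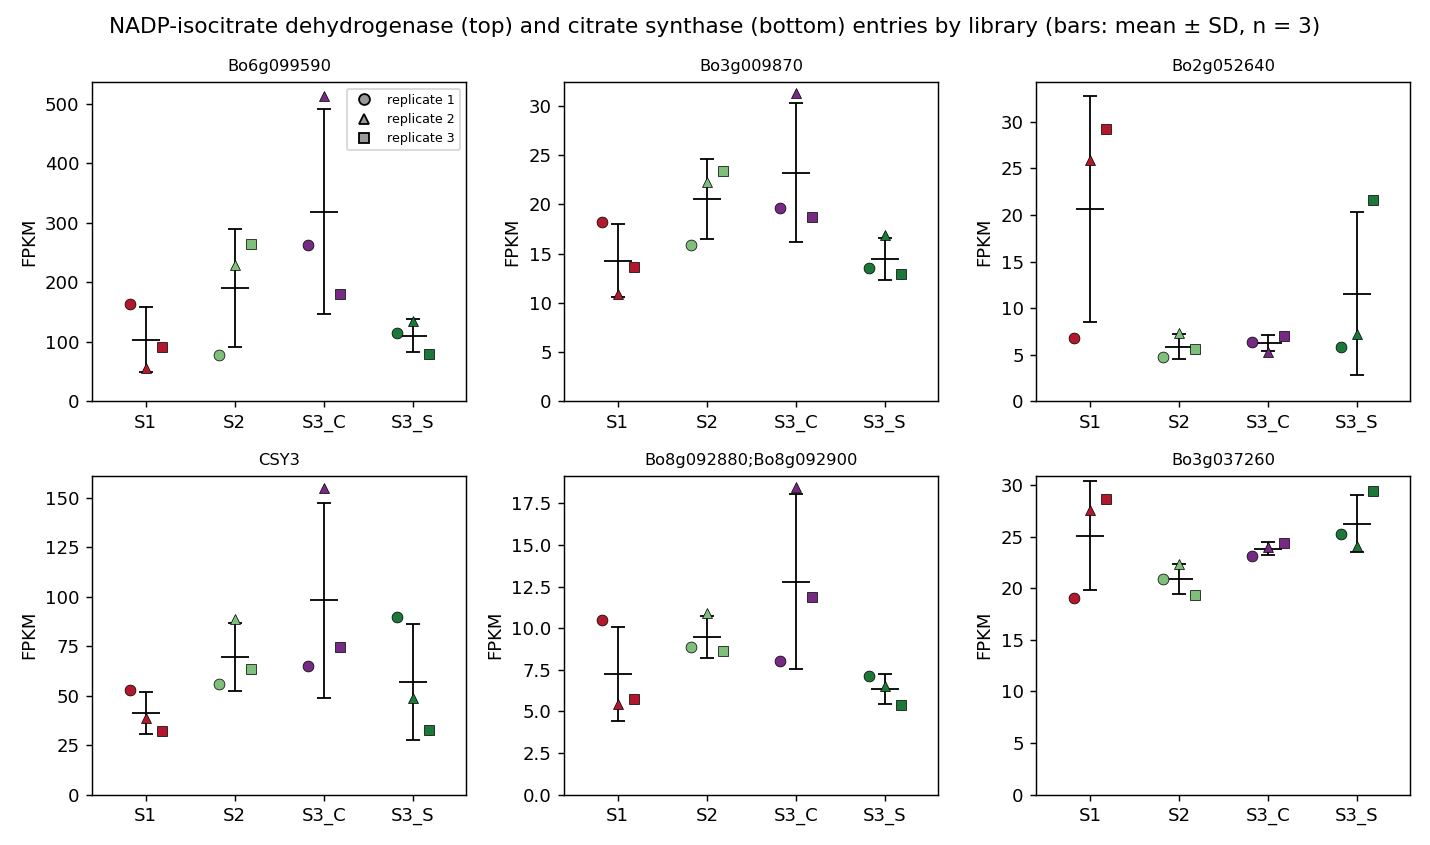
FPKM of 3 NADP-isocitrate dehydrogenase entries (top) and 3 citrate synthase entries (bottom) in the 4 groups; points are libraries, shaped by replicate number, and bars give mean ± SD (n = 3). Bo6g099590 lies at 181 FPKM or more in S3_C and at 136 or less in S3_S, while Bo2g052640 is high in S1 replicates 2 and 3 and S3_S replicate 3.

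2-Oxoglutarate dehydrogenase, the complex that forms succinyl-CoA, had 3 entries for its E1 decarboxylase and 4 for its E2 succinyltransferase. Its 7 entries summed to 116 ± 9.75 FPKM in S1, 100.2 ± 6.12 in S2, 114 ± 19.7 in S3_C and 122 ± 4.98 in S3_S. The most abundant, the E1 entry Bo3g097740, read 28.0, 43.3 and 37.3 FPKM in S1, 38.3, 31.2 and 32.1 in S2, 30.0, 39.3 and 45.1 in S3_C, and 48.9, 50.1 and 46.5 in S3_S. Every green margin library lay above every library of the other groups. The margin exceeded S2 by 0.51 ± 0.22 (SE, log2 scale), which did not pass (limma adjusted p = 0.893). The E2 entry Bo8g061420 was low in 3 libraries, at 6.77 and 6.07 FPKM in S1 replicates 2 and 3 and 5.97 in S3_S replicate 3, against 8.34 to 18.7 elsewhere. The E1 entry Bo9g068210 was high in them, at 13.9, 14.0 and 16.8 FPKM against 5.16 to 12.2. The E2 entries Bo2g041280 and Bo9g119120 also carry GTPase activator terms, so their placing is less sure.

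Succinyl-CoA ligase releases succinate and forms ATP from an alpha and a beta subunit. The beta entries led, with means of 40.1 FPKM for Bo7g003570 and 33.7 for Bo9g029370. Bo7g003570 read 35.4, 56.1 and 61.4 FPKM in S1, 35.5, 37.1 and 35.6 in S2, 27.3, 35.5 and 43.6 in S3_C, and 37.2, 36.6 and 40.4 in S3_S. S1 replicates 2 and 3 stood above all other libraries. The alpha entry Bo7g097820 was the steadiest member, at 9.99 to 13.2 FPKM and a coefficient of variation of 9.70%. Another alpha entry, Bo3g004830, was high in 2 single libraries only, at 17.7 FPKM in S2 replicate 1 and 26.0 in S3_S replicate 1, against 4.70 to 8.11 in the other 10. Summed levels were 129 ± 30.6 FPKM in S1, 104 ± 2.14 in S2, 110 ± 26.8 in S3_C and 117 ± 6.34 in S3_S.

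Succinate dehydrogenase is both a cycle enzyme and complex II of the respiratory chain. Its 3 flavoprotein entries, which hold the catalytic site, were among the steadiest members. Bo7g064530 read 22.1, 28.4 and 31.0 FPKM in S1, 20.6, 24.8 and 23.7 in S2, 27.7, 35.9 and 31.0 in S3_C, and 26.4, 26.5 and 29.5 in S3_S. All center and margin libraries of stage 3 lay above all S2 libraries. The other flavoprotein entries, Bo9g021680 and Bo2g167770, had coefficients of variation of 11% and 11.8%. Among the iron-sulfur entries, which pass electrons to ubiquinone, Bo2g140660 was highest in S1 replicates 2 and 3 and S3_S replicate 3. It read 17.8, 18.7 and 18.3 FPKM there, against 9.84 to 15.6 elsewhere.

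The iron-sulfur entry Bo9g008240 was uneven within S2 and S3_C and low throughout S3_S. It read 14.4, 15 and 19.5 FPKM in S1, 2.14, 27.9 and 1.91 in S2, 12.9, 1.89 and 13.0 in S3_C, and 2.89, 1.99 and 5.55 in S3_S. S2 replicate 2 and S3_C replicates 1 and 3 lay above 12 FPKM like S1, and the other libraries of S2 and S3_C lay near 2. The margin was lower than S1 by 2.02 ± 0.84 (SE, log2 scale), with limma adjusted p = 0.824. Summed over 6 entries, succinate dehydrogenase was 93.2 ± 13.1 FPKM in S1, 76.9 ± 20.2 in S2, 84.4 ± 7.04 in S3_C and 81.8 ± 6.47 in S3_S.

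Fumarase, which hydrates fumarate to malate, had 2 entries. Bo4g198680 matches FUM2, the cytosolic fumarase of Arabidopsis, and read 26.2, 29.1 and 31.0 FPKM in S1, 24.9, 29.1 and 23.3 in S2, 23.2, 39.6 and 31.1 in S3_C, and 22.1, 33.0 and 12.1 in S3_S. The groups overlapped, and S3_S replicate 3 was the lowest library. The merged entry Bo4g001130;Bo4g001140 also carries kinesin terms and stayed between 12.1 and 16.4 FPKM.

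Malate dehydrogenase, which regenerates oxaloacetate and shuttles reducing power between compartments, was by far the most abundant enzyme of the set, with 10 entries that summed to 802 ± 143 FPKM in S1, 1018 ± 354 in S2, 1079 ± 305 in S3_C and 811 ± 26.6 in S3_S. Bo2g009460 and Bo5g004570 made up most of it, with means of 383 and 305 FPKM. Bo2g009460 read 519, 41.6 and 57.2 FPKM in S1, 223, 502 and 826 in S2, 744, 671 and 226 in S3_C, and 333, 229 and 226 in S3_S. S1 replicates 2 and 3 were far below every other library, and S1 replicate 1 lay within the range of S2. Its share of all malate dehydrogenase FPKM ran from 6.37% in S1 replicate 2 to 66.2% in S2 replicate 3. Bo5g004570 read 216, 280 and 389 FPKM in S1, 236, 492 and 179 in S2, 200, 424 and 296 in S3_C, and 260.3, 426 and 267 in S3_S, with full overlap of the groups.

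PMDH2, in Arabidopsis a peroxisomal form that serves photorespiration and fatty acid oxidation, followed Bo2g009460 at lower levels. It read 41.5, 2.08 and 3.66 FPKM in S1, 9.25, 24.4 and 59.7 in S2, 48.6, 29.6 and 11.2 in S3_C, and 25, 7.22 and 22.7 in S3_S. The antenna gene LHCA4 was likewise lowest in S1 replicates 2 and 3, at 262 and 229 FPKM against 981 or more elsewhere; its part in these results was not tested.

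Other malate dehydrogenase entries were highest in S1 replicates 2 and 3. The entry Bo9g059040, matched to the Arabidopsis cytosolic form cMDH2, read 61.4, 132 and 152 FPKM in S1, 56.1, 75.2 and 64.2 in S2, 57.4, 58.8 and 98.0 in S3_C, and 68.8, 63.7 and 109 in S3_S. Bo6g031300 read 17.0, 59.9 and 63.2 FPKM in S1, 18.2, 18.7 and 18.8 in S2, 20.0, 25.3 and 22.5 in S3_C, and 23.0, 24.6 and 45.1 in S3_S. Bo3g183840, described as a fragment, read 10.4, 29.9 and 37.3 FPKM in S1, 7.99, 7.91 and 8.04 in S2, 7.78, 6.53 and 11.5 in S3_C, and 13.0, 12.9 and 25.8 in S3_S. For Bo3g183840 every S1 library and every margin library lay above every S2 library, and every margin library above every center library. The ratio of Bo2g009460 to Bo6g031300 was 30.5, 0.695 and 0.904 in S1, 12.3 to 43.9 in S2, 10.1 to 37.1 in S3_C and 5 to 14.5 in S3_S. The low entry Bo5g092980 read 0.959, 7.46 and 6.19 FPKM in S1 and 4.23 in S3_S replicate 3, at most 1.76 in the other libraries, and was listed at 0 in 5 of them.

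**Figure D3:**
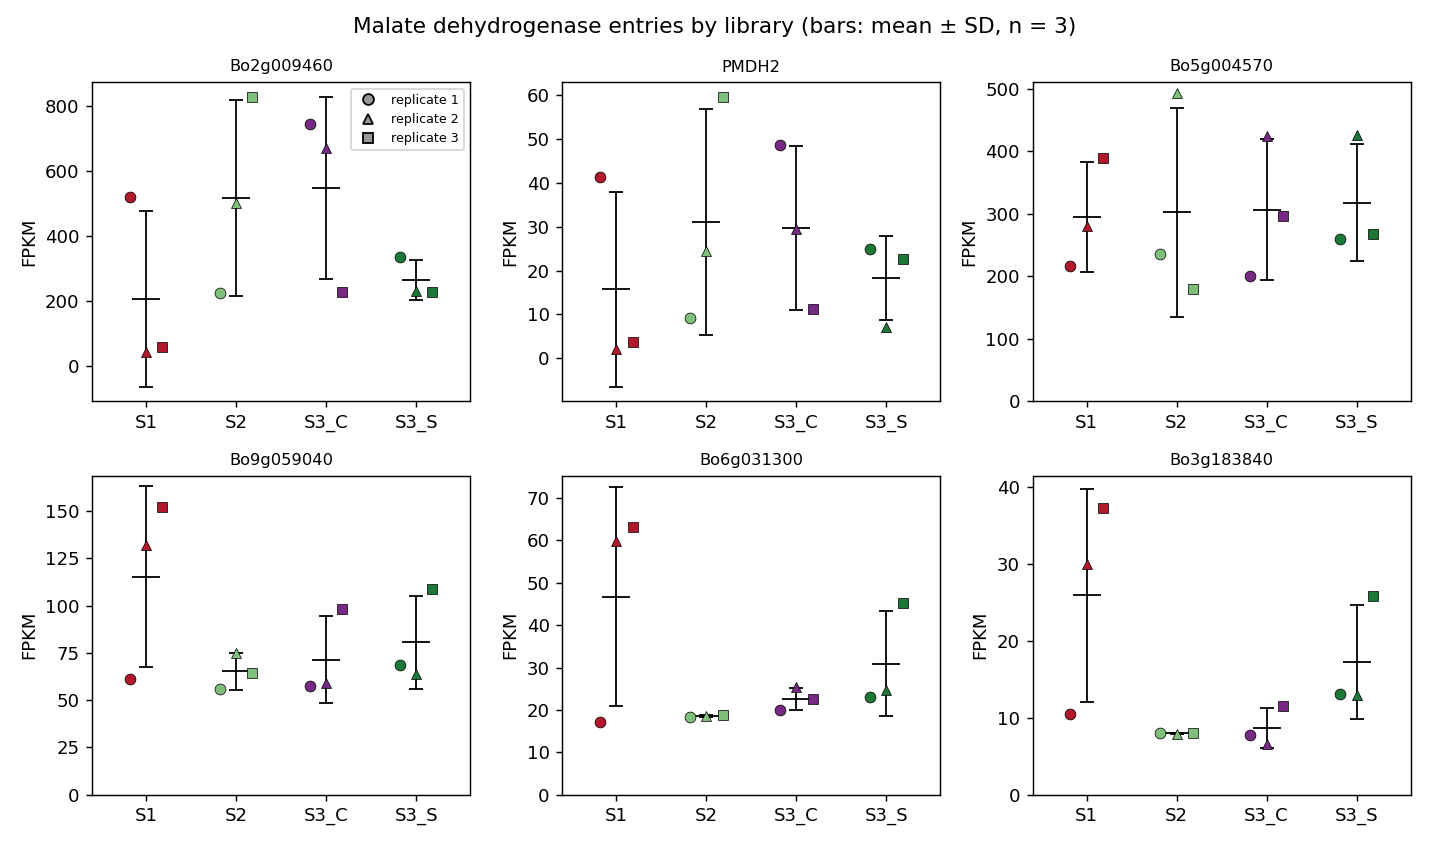
FPKM of 6 malate dehydrogenase entries in the 4 groups; points are libraries, shaped by replicate number, and bars give mean ± SD (n = 3). Bo2g009460 and PMDH2 are low in S1 replicates 2 and 3, at 41.6 and 57.2 and at 2.08 and 3.66 FPKM, where Bo9g059040, Bo6g031300 and Bo3g183840 are at their highest.

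Phosphoenolpyruvate carboxylase, which forms oxaloacetate from phosphoenolpyruvate and bicarbonate, was even as a sum, at 120 ± 3.82 FPKM in S1, 133 ± 24.1 in S2, 132 ± 32.1 in S3_C and 117 ± 12.0 in S3_S. The most abundant of its 9 entries had close means, at 24.14 FPKM for Bo4g191690, 24.11 for Bo9g097380 and 23.91 for Bo4g016200. In S1 the mean share of the sum was 11.1% for Bo4g191690 and 23.9% for Bo9g097380. Bo4g191690 read 14.3, 12.9 and 12.5 FPKM in S1, 13.3, 19.3 and 56.8 in S2, 46.3, 25.9 and 20.2 in S3_C, and 18.4, 32.6 and 17.2 in S3_S. All stage 3 libraries exceeded all S1 libraries. Bo7g034290 read 14.4, 18 and 19.9 FPKM in S1, 15.3, 11.3 and 9.15 in S2, 10.8, 10.2 and 9.21 in S3_C, and 10.8, 6.61 and 10.1 in S3_S. All stage 3 libraries of that entry lay below all S1 libraries, and the margin was lower than S1 by 0.87 ± 0.24 (SE, log2 scale; limma adjusted p = 0.824).

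**Figure D4:**
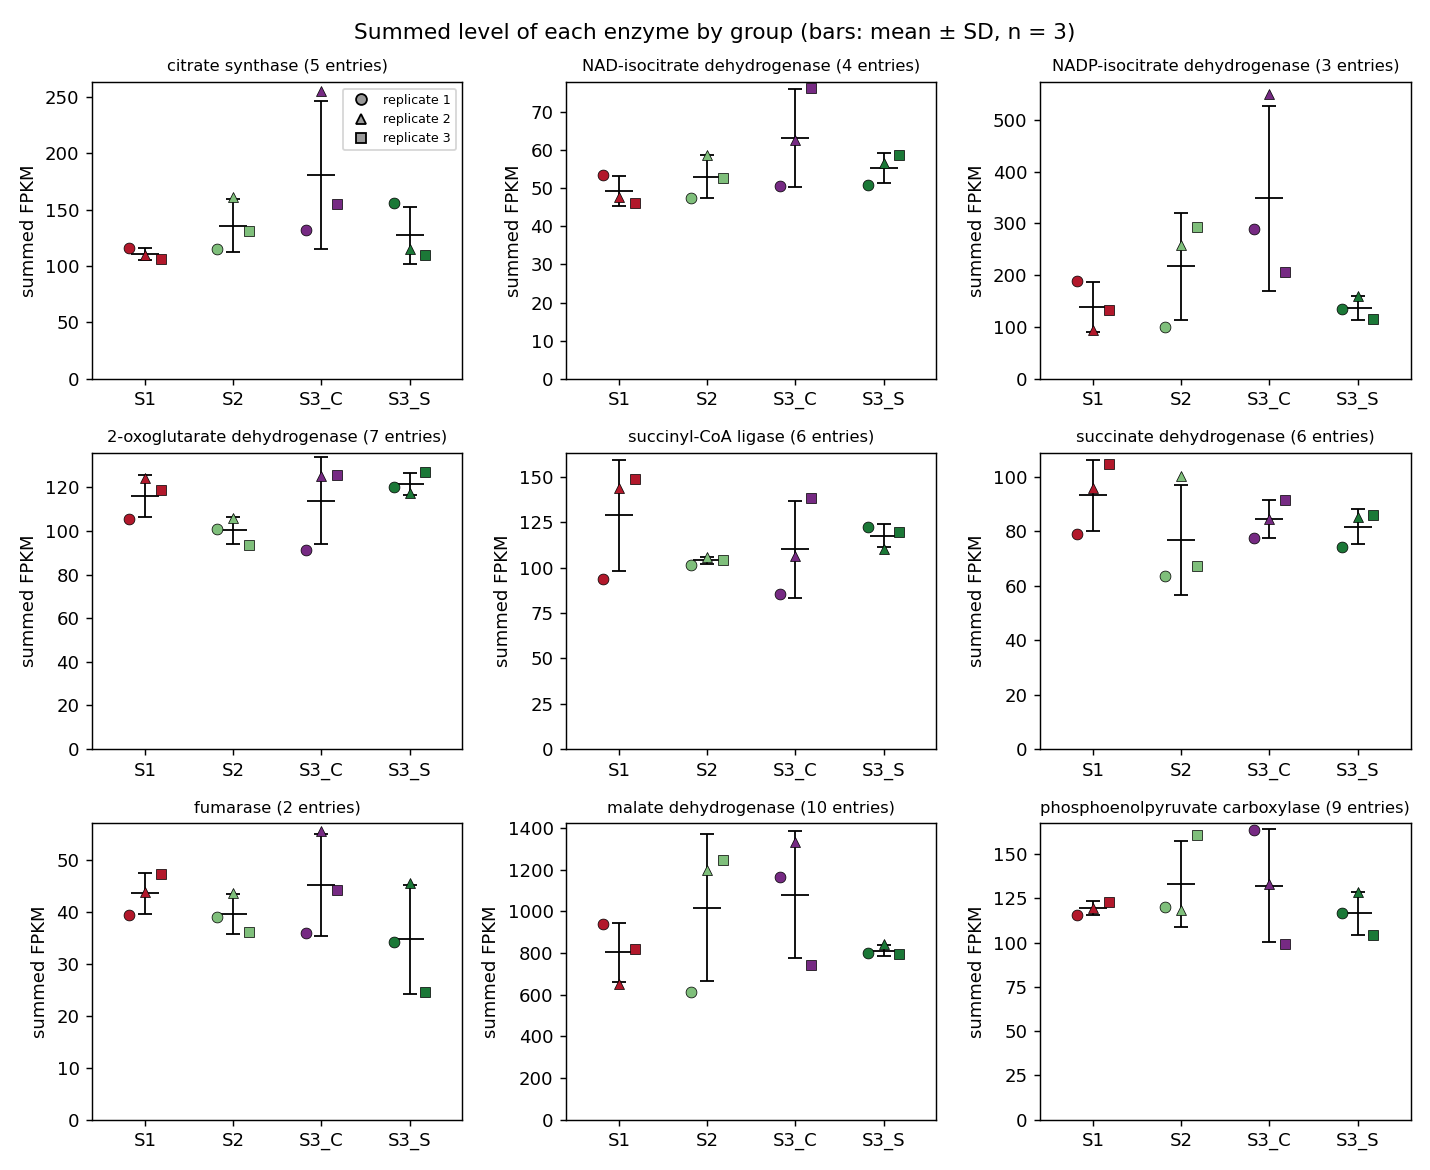
Summed FPKM of the entries of each enzyme in the 4 groups; points are libraries, shaped by replicate number, and bars give mean ± SD (n = 3), with every axis starting at 0. NADP-isocitrate dehydrogenase and citrate synthase have their highest library in S3_C replicate 2, at 549.8 and 255 FPKM, while 2-oxoglutarate dehydrogenase stays between 91.1 and 127 FPKM.

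The first stage comparison, S2 against S1, follows the leaf from red to bicolor. No member passed the limma test at an adjusted p under 0.05, where 0.00733% of all tested entries did. The smallest adjusted p of a member was 0.403. At an unadjusted p under 0.05 there were 9 members, 2 higher and 7 lower, or 17.3% of members against 12.1% of all tested entries. By direction, 1009 of the 27272 tested entries were higher and 2288 lower. Every S2 library exceeded every S1 library in 2 members (background 4.71%) and was below in 7 (background 6.70%). The median member differed by -0.10 on the log2 scale and the median of all tested entries by -0.09. Both medians turned to 0.02 after median-of-ratios scaling. The most extreme estimates were 2.06 ± 0.88 (SE) for Bo2g009460 and -1.85 ± 0.76 for Bo5g092980.

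Without S1 replicate 1 the same comparison called 10 members, and calls became common over the whole table as well. Of all tested entries, 4.69% were then called higher and 10.9% lower in S2. Members called higher were the malate dehydrogenases Bo2g009460 (3.19 ± 0.62, log2 scale) and PMDH2 (2.73 ± 0.80) and the NAD-isocitrate dehydrogenase Bo3g166960 (0.93 ± 0.22). Members called lower were the malate dehydrogenases Bo5g092980 (-2.51), Bo3g183840 (-1.94), Bo6g031300 (-1.68) and Bo9g059040 (-1.12), the NADP-isocitrate dehydrogenase Bo2g052640 (-2.07), the succinyl-CoA ligase alpha entry Bo2g008990 (-0.92) and the succinate dehydrogenase entry Bo2g140660 (-0.69). Their limma adjusted p values lay between 0.00745 and 0.0478. The S1 group then holds 2 libraries. S1 replicate 1 was singled out from these same values, so calls made without it, here and below, are no independent support. Leaving out any other single library called no member.

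**Figure D5:**
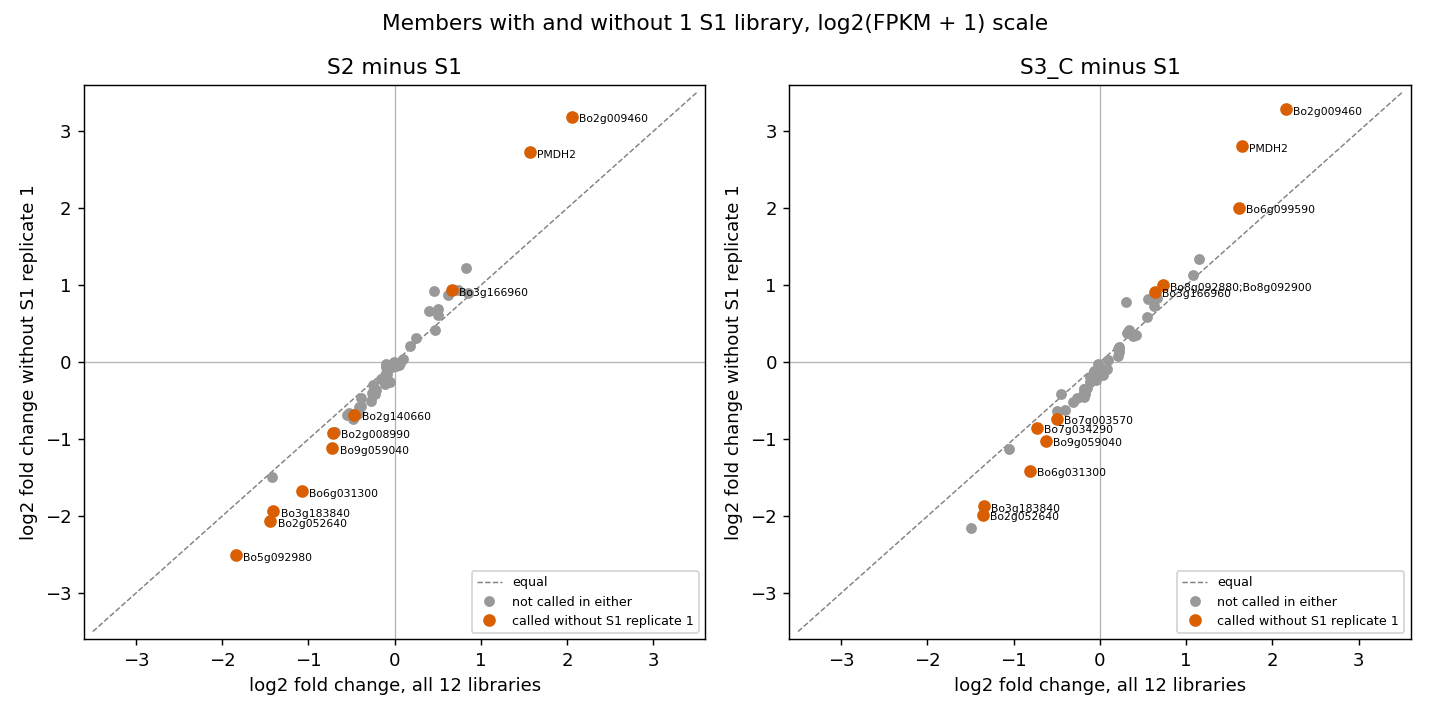
Each point is 1 of the 52 members; the horizontal axis gives its log2 fold change with all 12 libraries and the vertical axis that without S1 replicate 1, for S2 minus S1 (left) and S3_C minus S1 (right). Orange points are members called at an adjusted p under 0.05 only without that library, 10 on the left and 11 on the right, and they lie farther from 0 than with all libraries.

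The red center against S1 compares red tissue at the last and the first stage. No member was called, with 0.00733% of all tested entries called. At an unadjusted p under 0.05 there were 8 members higher and 4 lower, or 23.1% against 21.9% of all tested entries. By direction, 1668 of the 27272 tested entries were higher and 4302 lower. Most of these members were thus higher, while most of these entries were lower. All center libraries exceeded all S1 libraries in 7 members (background 5.28%) and were below in 2 (background 10.1%). Those with an unadjusted p under 0.05 and a higher value included the citrate synthases CSY3, Bo6g076080 and Bo8g092880;Bo8g092900, the NADP-isocitrate dehydrogenases Bo6g099590 (1.61 ± 0.56, log2 scale) and Bo3g009870, and Bo2g009460 (2.15 ± 0.88). The member median was -0.02 beside -0.18 for all tested entries. After median-of-ratios scaling the member median turned to 0.21 and that of all tested entries to 0.01. Without S1 replicate 1, limma called 5 members higher (background 6.41%) and 6 lower (background 16.6%). The members called higher were Bo2g009460, PMDH2, Bo6g099590, Bo8g092880;Bo8g092900 and Bo3g166960. Those called lower were Bo2g052640, Bo3g183840, Bo6g031300, Bo9g059040, the succinyl-CoA ligase beta entry Bo7g003570 and the phosphoenolpyruvate carboxylase Bo7g034290.

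The green margin against S1 called no member, with 0.00733% of all tested entries called, also without S1 replicate 1. At an unadjusted p under 0.05 there were 2 members, both lower (background 5.69% in either direction), the entries Bo7g034290 and Bo9g008240. All margin libraries exceeded all S1 libraries in 3 members (1565 of 27272 tested entries) and were below in 5 (1040 of 27272). Only when S3_S replicate 3 was left out as well did limma call 7 members. The NAD-isocitrate dehydrogenase Bo3g166960 was then higher (background 3.35%), and Bo5g092980, Bo2g052640, Bo6g031300, Bo3g183840, Bo9g059040 and Bo7g034290 were lower (background 7.94%). With both libraries left out, limma called 11 members in S2 minus S1, 2 higher (background 5.63%) and 9 lower (background 13.3%). In S3_C minus S1 it then called 14, with 6 higher (background 7.08%) and 8 lower (background 18%). These comparisons share the S1 libraries, so their likeness is not independent. S3_S replicate 3 was likewise singled out from these same values.

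The comparison of the green margin with the red center is the one within a single stage. No member passed the limma test, nor did any other tested entry (0%). At an unadjusted p under 0.05 there were 3 members, all lower in the margin (background 10.4% in either direction), the NADP-isocitrate dehydrogenases Bo6g099590 (-1.42) and Bo3g009870 (-0.62) and the citrate synthase Bo8g092880;Bo8g092900 (-0.84). By direction, 2036 of the 27272 tested entries were higher in the margin and 789 lower. All margin libraries lay below all center libraries in 6 members (background 4.85%) and above them in 3 (background 11.9%). The member median was -0.08 while that of all tested entries was 0.18. After median-of-ratios scaling these were -0.30 and 0.01. Without S3_C replicate 2 no member reached an unadjusted p under 0.05, and the differences of these 3 entries shrank to -1.01, -0.39 and -0.56. The member median was then -0.04.

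From S2 to stage 3 the median changes of the members were small. Against the red center no entry was called in limma (0%), and 1 member, the flavoprotein entry Bo7g064530, had an unadjusted p under 0.05 (background 1.23%), being higher in the center by 0.43 ± 0.19 on the log2 scale. Of the 52 members 41 were higher in the center than in S2, with a median of 0.15, while 36.8% of all tested entries were higher and their median was -0.09. S2 replicate 1 was the lowest library in 14 of 52 members, against 5.18% of all tested entries (ties counted for the first library). Without S2 replicate 1 the member median was 0.08. All 10 malate dehydrogenase and all 5 citrate synthase entries had estimates above 0, none of which passed. All center libraries exceeded all S2 libraries in 4 members (410 of 27272 tested entries) and were below in 0 (695 of 27272). Against the green margin no entry was called (0%), and Bo3g183840 (0.95 ± 0.42) and Bo3g097740 had an unadjusted p under 0.05 (background 3.29%). All margin libraries exceeded all S2 libraries in 8 members (background 11.2%) and were below in 3 (background 4.63%). The member median was 0.08 beside 0.10 for all tested entries, and after scaling these were -0.03 and 0.01.

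Entries without the term, of cycle enzymes and of enzymes next to the cycle, added 39 tested entries. Those of cycle enzymes were 4 of aconitase, 3 of dihydrolipoyl dehydrogenase and 3 of succinate dehydrogenase. None of the 39 was called by limma in any of the 6 comparisons. At an unadjusted p under 0.05, 0 were higher and 9 lower in S2 minus S1, where 12.1% of all tested entries passed in either direction and 2288 of those 3297 were lower. The median over the 39 was -0.19 there, beside -0.09 for all tested entries. In S3_C minus S1 1 was higher and 7 were lower (background 21.9%), in S3_S minus S3_C 2 were higher and 1 lower (background 10.4%), in S3_S minus S1 1 higher and 1 lower (background 5.69%), in S3_S minus S2 1 higher and 0 lower (background 3.29%), and in S3_C minus S2 none in either direction (background 1.23%). Aconitase, which turns citrate into isocitrate, had 4 tested entries, and its main entry Bo7g027890 read 50.4, 48.0 and 50.0 FPKM in S1, 37.3, 53.3 and 58.2 in S2, 49.4, 104 and 59.7 in S3_C, and 49.3, 50.0 and 54.5 in S3_S. Apart from S3_C replicate 2 that entry was even. Dihydrolipoyl dehydrogenase, the E3 subunit that reoxidises the lipoyl groups of the dehydrogenase complexes, had 3 tested entries. The mitochondrial entry mtLPD1 read 29.5, 24.3 and 26.1 FPKM in S1, 19.3, 27.8 and 40.4 in S2, 42.1, 49.3 and 25.8 in S3_C, and 26.3, 24.7 and 33.7 in S3_S, and its groups overlapped. For Bo1g055050 every S2 and S3_C library, at 13.0 to 20.1 FPKM, lay below every S1 library, at 21.9 to 28.5. LPD1, in Arabidopsis a plastid form, was higher in the margin than in the center by 1.42 ± 0.55 (SE, log2 scale; limma adjusted p = 0.476). It read 3.40, 1.33 and 13.6 FPKM in S3_C and 12.8, 10.5 and 17.0 in S3_S, so the 2 groups overlapped. The main malic enzyme, ATNADP-ME2, which releases pyruvate from malate, read 157, 466 and 339 FPKM in S1, 199, 137 and 106 in S2, 109, 104 and 173 in S3_C, and 181, 135 and 206 in S3_S. ACLA-2, a subunit of the cytosolic ATP-citrate lyase that makes acetyl-CoA for wax and flavonoid synthesis, was high in S1 replicates 2 and 3 and S3_S replicate 3, at 111, 121 and 98.9 FPKM against 31.6 to 51.2 elsewhere. The subunit B entry Bo9g009830 was also highest in those libraries. The entry ACLA-3;Bo8g058540 was lowest in them, at 12.8, 16.9 and 15.9 FPKM against 20.7 to 36.6 elsewhere, and ACLA-1 stayed at 1.09 to 3.95 FPKM. The alternative oxidase AOX1D, which bypasses the later respiratory chain, read 18, 1.36 and 3.34 FPKM in S1, 13.4, 23.4 and 8.95 in S2, 10.5, 67.3 and 39.5 in S3_C, and 12.6, 8.24 and 2.78 in S3_S. The succinate dehydrogenase entry Bo3g039220 had 2 levels, near 1 FPKM in S1 replicates 2 and 3 (1.16 and 1.15) and S3_C replicate 3 (0.744), and 58.9 to 116 FPKM in the other 9 libraries.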

How the data were processed

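Per the labels, libraries were made from poly(A) RNA and read from both ends on an Illumina instrument. The authors deposited FPKM per entry and library. The tools HISAT2 2.0, StringTie 1.3.0 and Bowtie 0.12.2 appear, without roles, in the submitters' processing notes; build and annotation: not given in the sources used here. Depth and read counts are unknown, so no counting interval is given, and values listed at 0 were not read as absence.

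Entries that reached 1 FPKM in 3 or more of 12 libraries entered a limma fit (version 3.58.1, R 4.3.3) of log2(FPKM + 1) to the 4 group means over all 12 libraries, with an eBayes trend and Benjamini-Hochberg adjustment over 27272 entries within each of 6 comparisons. This scale understates changes of low entries. Calls need an adjusted p under 0.05. On simulated data for S2 minus S1, 2, 32, 46 and 48 of 50 entries changed by 1, 2, 3 and 4 on the log2 scale were recovered among 27272, with 6 false calls. The simulated noise was independent between libraries, with the same spread in all groups and no library set apart from its group. Only entries with a mean log2(FPKM + 1) above 3 were changed, so the recovery of lower entries is not covered.

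Members and lists were chosen with earlier results of these data known, and the placing of entries by function term was added after the table was seen. Named entries are the most abundant of each enzyme, those called, the top 5 differences with an unadjusted p under 0.05, and the largest in each direction with groups that do not overlap. Others named with their values, such as PMDH2, Bo3g166960, Bo9g059040, Bo3g004830, Bo7g003570, Bo8g061420 and the entries without the term, were chosen after their values were seen. Alternatives were another pseudocount, no filter, median-of-ratios scaling, 6 libraries only, the replicate block, and libraries left out. Between S3_S and S3_C, deviations of same-numbered libraries correlated at 0.268, 0.195 and 0.158 across entries. In the other comparisons at least 1 such correlation was below 0.1. Larger values also occurred there, at 0.330 and 0.379 for replicates 1 and 3 of S3_S and S1. Differently numbered libraries of S2 and S1 reached 0.373. These correlations therefore cannot decide whether the numbers pair center and margin, and the labels do not say. Libraries were compared for copied columns, and at most 1.03% of values were identical within a group and 1.16% between groups.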

Additional observations from a re-analysis of the deposited data

How the results depend on the processing

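The number of members called was 0 in each of the 6 comparisons, also with a pseudocount of 0.1, no filter, scaling or 6 libraries only. With the replicate block it was 0 in each as well, and the block changed no other call. Leaving out 1 library at a time gave 0 to 10 members in S2 minus S1, 0 to 11 in S3_C minus S1 and 0 in the others. Leaving out S1 replicate 1 and S3_S replicate 3 together gave 11, 14 and 7 in S2, S3_C and S3_S minus S1, where 5.63%, 7.08% and 3.35% of all tested entries were called higher and 13.3%, 18% and 7.94% lower, and the cause was not tested. Over single libraries left out, member medians ran from -0.23 to -0.06 in S2 minus S1, -0.16 to -0.04 in S3_S minus S3_C, 0.08 to 0.21 in S3_C minus S2, -0.01 to 0.15 in S3_S minus S2, -0.10 to 0.11 in S3_C minus S1 and -0.11 to -0.01 in S3_S minus S1. Scaling moved the median to -0.30 in S3_S minus S3_C and 0.21 in S3_C minus S1, where it also moved the median of all tested entries from 0.18 to 0.01 and from -0.18 to 0.01. Scaling moved summed FPKM to 114.5 for 2-oxoglutarate dehydrogenase in S3_S, 103.9 for citrate synthase in S1, 765.1 for malate dehydrogenase in S3_S, 111.6 for phosphoenolpyruvate carboxylase in S1, 93.8 for succinate dehydrogenase in S3_C, and 106.8 and 110.7 for succinyl-CoA ligase in S2 and S3_S. Without entries naming more than 1 gene, sums were 103.6 for citrate synthase in S1, 114.7 for phosphoenolpyruvate carboxylase in S1, and 28.8, 25.8, 31.3 and 22.4 for fumarase in S1, S2, S3_C and S3_S, by construction. Among named members, 20 of 414 alternative values passed the threshold, all without S1 replicate 1. The unknown depth limits what low entries can show.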
